A study of Saccharomyces cerevisiae with 90 samples.

Results

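The comparison described here is that of the budding yeast strain lacking both CUP9 and SFL1 with the strains lacking only SFL1 or only CUP9. It rests on 13 Affymetrix arrays out of the 70 in the table of 10 h colonies and the 90 in the whole series. The arrays were chosen by their titles: 3 titled cup9-sfl1, 3 titled sfl1, 4 of the 5 titled cup9, and 3 titled Wild-type filamentous form. The double mutant carried cup9::bcKanMX4 and sfl1::bcKanMX4, that is, drug-resistance cassettes at both genes, in the strain G85. The sfl1 strain carried only sfl1::bcKanMX4 and the cup9 strain only cup9::bcKanMX4, and the wild type was G85 itself. All 4 groups were grown as colonies for 10 h on SLAD, a synthetic dextrose medium poor in ammonium, to which uracil and histidine were added. The cup9-sfl1 strain against sfl1 gave the effect of losing CUP9 where SFL1 was already lost. Against cup9 it gave the effect of losing SFL1 where CUP9 was already lost. With the wild type as the fourth group, the change of the double mutant could be compared with what adding the 2 single changes gives. The comparisons share the cup9-sfl1 arrays.

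Both deleted genes code for DNA-binding repressors. Cup9 is a homeodomain repressor best known for holding down PTR2, the gene of the transporter that imports di- and tripeptides. Imported dipeptides activate the ubiquitin ligase Ubr1, which marks Cup9 for destruction, so that the transporter promotes its own synthesis. Sfl1 has a DNA-binding domain like that of heat shock factors and works with the corepressor Ssn6-Tup1. Its known targets include genes of the flocculins, cell wall adhesins that make yeast cells stick to each other and to surfaces, among them FLO11, and SUC2, the invertase gene. Protein kinase A relieves Sfl1 repression, and flocculins are needed for the chains of cells that yeast forms when nitrogen is scarce.

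The deleted genes were checked first. CUP9 had log2 levels of 4.73, 4.82 and 4.63 in the cup9-sfl1 arrays, 8.18, 8.49 and 8.57 in the sfl1 arrays, 4.34, 3.68, 3.86 and 3.91 in the cup9 arrays, and 7.78, 7.72 and 7.84 in the wild type. The 7 arrays used of the strains without CUP9 all lay below those of sfl1 and the wild type. The remaining cup9 array, left out for its CUP9 level, did not. SFL1 had levels of 5.42, 5.51 and 5.65 in cup9-sfl1, 5.78, 5.16 and 5.83 in sfl1, 6.81, 6.65, 6.89 and 6.69 in cup9, and 7.01, 7.28 and 6.89 in the wild type. Its groups did not overlap either, but the gap was narrower, and the SFL1 level differed between cup9-sfl1 and cup9 by -1.23 ± 0.18 (SE, log2) in a limma fit, adjusted p = 2.85e-06. Between the strains without CUP9, the CUP9 level was 0.78 ± 0.22 higher in cup9-sfl1 than in the cup9 arrays used (limma adjusted p = 0.00653). Since a cup9 array had been left out for its CUP9 level, this p-value cannot test whether the strains differed in it. The call was lost when the tec1 array with a low CUP9 level, described next, was kept in the fit. With the left-out cup9 array kept as well, the difference was reversed.

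The array titled cup9 replicate 4 was left out because its CUP9 level of 8.21 and its TEC1 level of 4.57 went against its label. The array titled tec1 replicate 1 had the opposite pattern, with CUP9 at 4.07 and TEC1 at 8.68, and was left out of the fit as well. Array medians over the 5562 genes were 6.51 to 6.69 in cup9-sfl1, 6.52 to 6.77 in sfl1, 6.73 to 6.83 in cup9 and 6.75 to 6.77 in the wild type. The median absolute difference between arrays of a group was 0.24 to 0.31 in cup9-sfl1, 0.239 to 0.382 in sfl1, 0.165 to 0.274 in cup9 and 0.107 to 0.167 in the wild type. Replicates differed more in the strains without SFL1 than in the wild type. The labels do not say whether replicates came from separate colonies or clones, so p-values measure the spread between arrays, which may be technical. Precision was limited by the 3 or 4 arrays of a group. In RNA from whole colonies a lower level per cell and fewer cells with the transcript cannot be told apart.

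**Figure D1:**
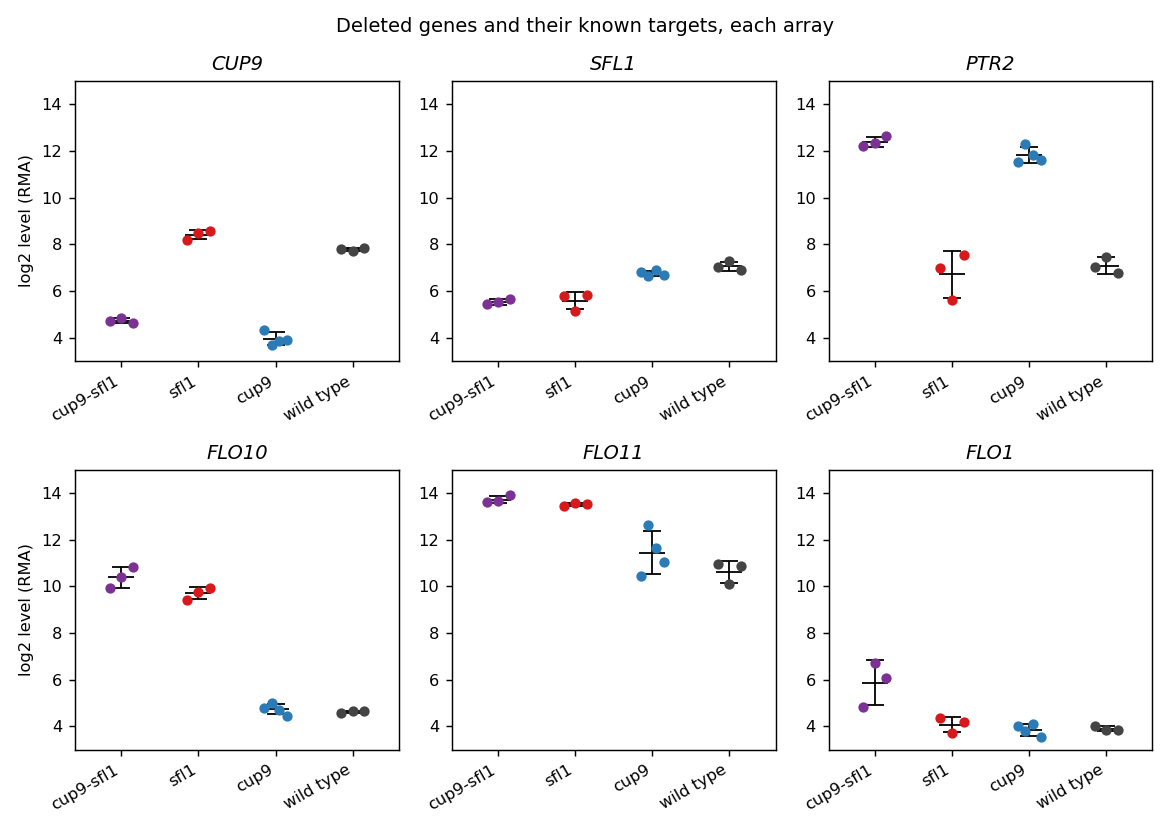
Log2 RMA level (vertical axis) of CUP9, SFL1, PTR2, FLO10, FLO11 and FLO1 in each array of the 4 groups, from left to right cup9-sfl1, sfl1, cup9 and the filamentous wild type. Points are arrays and bars are the mean ± SD. PTR2 was between 12.20 and 12.63 in cup9-sfl1 and between 5.60 and 7.55 in sfl1, whereas FLO10 and FLO11 were high in both strains without SFL1.

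Few genes were called on loss of CUP9 from the sfl1 strain. The largest rise was that of PTR2, the Cup9 target, and the other genes that rose included the peptidase genes AAP1 and DUG1, the amino acid permease gene BAP2, the adhesin gene FLO1, and NDE1, SDH1 and COX5A, which code for mitochondrial enzymes. The largest fall after CUP9 itself was that of ANB1, a gene that aerated cells keep off. In all, 36 of 5562 genes (0.647%) passed the limma test at an adjusted p under 0.05, 21 of them higher in cup9-sfl1 (0.378%) and 15 lower (0.27%). The median change over all genes was -0.03. Genes that were not called cannot be taken as unchanged, since 657 genes had an unadjusted p under 0.05. Of the 36 genes, 11 were called whichever array was left out, and the count ranged from 15 without cup9-sfl1 replicate 3 to 180 without cup9-sfl1 replicate 1. It was 22 without sfl1 replicate 1 and 55 without sfl1 replicate 3.

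PTR2 had log2 levels of 12.20, 12.34 and 12.63 in cup9-sfl1 and of 6.99, 5.60 and 7.55 in sfl1. The change of 5.68 ± 0.50 (SE), a 51.1-fold difference with an adjusted p of 3.21e-12 in limma, was called under every alternative that was run. The cup9 arrays, at 11.52, 12.32, 11.84 and 11.63, overlapped those of the double mutant, and the wild type, at 7.01, 7.47 and 6.78, lay in the range of sfl1. Between cup9-sfl1 and cup9 the PTR2 level differed by 0.56 ± 0.47 (SE), which did not pass (limma adjusted p = 0.328). Of 8 measured genes of peptide uptake and its regulators, PTR2 was the only one called against sfl1, beside 0.378% of all genes higher. OPT2, an oligopeptide transporter family member, differed by 0.00 from sfl1, with 6.46, 6.64 and 7.64 in cup9-sfl1 and 6.39, 7.12 and 7.24 in sfl1.

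Of 13 measured peptidase genes, on a list drawn up once these values were known, 3 rose and 10 did not pass, beside 0.378% of all genes higher. AAP1, the arginine and alanine aminopeptidase, had levels of 9.06, 8.67 and 8.63 in cup9-sfl1 and of 7.38, 7.67 and 7.27 in sfl1, a change of 1.35 ± 0.20 (SE; limma adjusted p = 1.76e-05). DUG1, the dipeptidase that splits cysteinylglycine in glutathione breakdown, had 12.16, 12.58 and 12.27 in cup9-sfl1 and 10.96, 10.92 and 11.46 in sfl1. Its change was 1.22 ± 0.25 (SE; limma adjusted p = 0.00409), and it was called under every alternative. YFR006W, annotated as a putative peptidase acting next to proline and named here after its values were seen, had 8.80, 8.98 and 8.60 in cup9-sfl1 and 7.84, 8.31 and 7.53 in sfl1, a change of 0.90 ± 0.15 (SE; limma adjusted p = 0.000318). No arrays of these groups overlapped for the 3 genes. The median change over the 13 genes was 0.47 against -0.03 for all genes. Since the list followed the values, neither its count nor its median can test whether peptidase genes rose as a group. CPS1, the vacuolar carboxypeptidase S, showed a larger difference of 1.56 that did not pass (limma adjusted p = 0.205).

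Of 14 amino acid permease genes 1 was called, BAP2, which rose, beside 0.378% of all genes higher. The number called ran from 0 to 2 in the fits without 1 array, and was 0 in the fit of 4 groups. BAP2, a permease for branched-chain amino acids, had levels of 6.46, 7.62 and 7.37 in cup9-sfl1 and of 5.77, 5.76 and 5.79 in sfl1. The change was 1.38 ± 0.29 (SE; limma adjusted p = 0.00495), and the call was lost without cup9-sfl1 replicate 2 or replicate 3. YPQ1, a vacuolar membrane transporter for basic amino acids, was 0.78 ± 0.20 higher (limma adjusted p = 0.0465), with arrays that overlapped. ASI3, part of the ubiquitin ligase of the inner nuclear membrane that keeps the amino acid sensing factors Stp1 and Stp2 in check, fell by 0.60 on the log2 scale, with 7.13, 7.30 and 6.85 in cup9-sfl1 and 7.51, 7.80 and 7.78 in sfl1.

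Of the 3 flocculin genes measured, FLO1 was called higher on loss of CUP9, beside 0.378% of all genes. FLO1 had levels of 4.81, 6.72 and 6.06 in cup9-sfl1, of 4.35, 3.70 and 4.17 in sfl1, of 4.01, 3.78, 4.10 and 3.53 in cup9, and of 4.02, 3.83 and 3.84 in the wild type. The double mutant stood above all 3 other groups, and its replicate 1 was closest to them. Against sfl1 the change was 1.79 ± 0.32 (SE; limma adjusted p = 0.000697), and the call held whichever array was left out. FLO10 differed by 0.69 between the strains (limma adjusted p = 0.204) and FLO11 by 0.20 (limma adjusted p = 0.938). Neither passed, although FLO10 did without cup9-sfl1 replicate 1, at 0.92 and a limma adjusted p of 0.0415. The FLO1 probe set may also bind transcripts of the similar genes FLO5 and FLO9, which were not measured apart.

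Of 35 respiratory chain and ATP synthase genes 2 rose, NDE1 and COX5A, and of 16 TCA cycle genes 1 rose, SDH1, beside 0.378% of all genes. NDE1, the NADH dehydrogenase facing the cytosol, had 11.68, 12.33 and 12.18 in cup9-sfl1 and 9.98, 11.02 and 11.57 in sfl1. COX5A, a subunit of cytochrome c oxidase, had 11.38, 11.74 and 11.26 in cup9-sfl1 and 10.12, 10.68 and 10.95 in sfl1, a change of 0.87 ± 0.17 (SE; limma adjusted p = 0.0015). SDH1, the flavoprotein of succinate dehydrogenase, had 10.10, 10.90 and 10.95 in cup9-sfl1 and 9.47, 9.83 and 9.94 in sfl1. The arrays of the strains did not overlap for the 3 genes. COX5A and SDH1 were both lost without sfl1 replicate 1, SDH1 also without cup9-sfl1 replicate 2 or 3, and NDE1 in 7 of the 13 fits without 1 array. TIM17, of the inner membrane import channel, was higher by 0.96, POR1, the porin of the outer membrane, by 0.70, and PET9, the main ADP/ATP carrier, by 0.57. TIM17 and PET9 each lost the call in 3 of the 13 fits without 1 array, and POR1 in 2. All of them lost it in the fit of 4 groups, and TIM17 also after quantile normalization. Over the respiratory list the median change was 0.38, against -0.03 for all genes. The number called on it ran from 0 without sfl1 replicate 1 to 5 without cup9-sfl1 replicate 1, and that of the TCA cycle list fell to 0 without cup9-sfl1 replicate 2. Some genes of lipid handling were called higher: NTE1, a phospholipase, by 1.29 ± 0.24 (SE), PLN1, a protein of lipid droplets, by 1.26, and TGL4, a triacylglycerol lipase, by 0.52. LIP1, of ceramide synthesis, was called lower, as given below. PLN1 and TGL4 each lost the call in 4 of the 13 fits without 1 array, and in the fit of 4 groups.

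After CUP9, ANB1 showed the largest fall. ANB1, which codes for the form of translation factor eIF5A made when oxygen is scarce, had levels of 7.72, 7.64 and 8.30 in cup9-sfl1 and of 11.44, 11.31 and 10.66 in sfl1. It fell by 3.25 on the log2 scale (SE 0.70, limma adjusted p = 0.00853). The cup9 arrays were at 6.95, 7.06, 6.84 and 8.09, and the wild type was at 7.38, 8.02 and 8.14. Both lay in the range of the double mutant or below, so that among the 4 groups sfl1 stood apart. In some other strains ANB1 spread widely between arrays, from 6.9 to 10.38 in tec1 and from 8.33 to 11.58 in tec1-skn7. In others, such as yap6 at 6.57 to 6.92, it did not. The sfl1-skn7 arrays, at 9.04 to 11.08, reached the sfl1 range. Without sfl1 replicate 1 the adjusted p was 0.0639. HYP2, the near-identical partner gene whose transcripts the ANB1 probe set may also bind, differed by -0.11 (limma adjusted p = 0.876) and was named for that reason.

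FET4, a low-affinity transporter of iron and other metals, had 4.46, 4.35 and 4.67 in cup9-sfl1, 5.98, 5.73 and 5.62 in sfl1, 4.02, 4.52, 4.42 and 4.67 in cup9, and 5.39, 5.13 and 5.21 in the wild type. Both strains without CUP9 were thus below both strains with it. The change against sfl1 was -1.29 ± 0.25 (SE; limma adjusted p = 0.0015) and was called under every alternative. TIS11, an RNA-binding protein that lowers iron-related mRNAs when iron is short, fell by 1.31 on the log2 scale, with 5.39, 4.86 and 4.87 in cup9-sfl1 and 6.50, 6.17 and 6.37 in sfl1. TIS11 was the only 1 of 20 genes of the iron regulon that was called, beside 0.27% of all genes lower. IZH4, a membrane protein of zinc homeostasis, fell by 1.05 on that scale. On a list of 13 genes repressed by oxygen, likewise drawn up once values were known, 2 fell (ANB1 and FET4), beside 0.27% of all genes. The median change was -0.24. For the same reason these values cannot test that list as a group. TIR1, a mannoprotein of oxygen-poor cells, differed by -1.15 (limma adjusted p = 0.06) and AAC3, an ADP/ATP carrier of such cells, by -0.94 (limma adjusted p = 0.134).

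The remaining genes that fell were DFP3 by 1.32 and DFP4 by 0.85, ATF1, an alcohol acetyltransferase, by 0.84, YGL039W by 0.83, WTM1, a transcriptional modulator, by 0.82, and LIP1, a subunit of ceramide synthase, by 0.76, all on the log2 scale. BAG7, a GTPase activator for Rho1, fell by 0.71, BOP3 by 0.62 and MNT4 by 0.59 on that scale. The remaining genes that rose were the small nucleolar RNA SNR53 by 1.24, YFL051C by 1.14, YMR317W and NRE1 by 0.94 each, and UFD4, a ubiquitin ligase, by 0.65. The YFL051C arrays of the strains overlapped. SNR53, YMR317W, NRE1, UFD4, ATF1, YGL039W and BOP3 each lost the call in 4 of the 13 fits without 1 array. MNT4 lost it in 3, and YFL051C, DFP4 and LIP1 in 2 each. For DFP3, WTM1 and BAG7 the call held whichever array was left out. On 25 of the 32 lists of pathways and markers no member was called against sfl1 by limma. The 446 genes of those lists held 61 with an unadjusted p under 0.05.

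The loss of CUP9 could be followed in 3 further pairs of strains that share no array with the pair above, where TEC1, SOK2 or SKN7, other regulators of filamentous growth, was deleted. The cup9-yap6 strain was not used, since its CUP9 levels were 8.04 to 8.38. In limma it called 41 genes where TEC1 was lost (0.737%), 10 where SOK2 was lost (0.18%) and 9 where SKN7 was lost (0.162%). Of the 21 genes that rose in cup9-sfl1, 5, 3 and 4 were called in the same direction where TEC1, SOK2 and SKN7 was lost. PTR2, AAP1 and BAP2 were called in all 3, YFR006W where TEC1 or SKN7 was lost and COX5A where TEC1 was lost. The PTR2 level was higher by 5.12 where TEC1 was lost, by 3.27 where SOK2 was lost and by 5.16 where SKN7 was lost. For AAP1 these differences were 1.71, 1.32 and 1.44, and for BAP2 1.46, 1.96 and 1.59. Of the 14 other genes that fell with CUP9, only FET4 was called in another background, at -0.92 where TEC1 was lost. The FET4 means were 6.26 in sok2 and 6.3 in cup9-sok2. Called or not, 21 of the 21 rising and 10 of the 14 falling genes kept their direction where TEC1 was lost. These counts were 18 and 7 where SOK2 was lost, and 9 and 5 where SKN7 was lost.

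The difference between the effect of CUP9 loss in the sfl1 strain and its mean in those 3 backgrounds was tested as a contrast of its own, and 8 genes (0.144%) passed in limma. FLO1 was 1.84 ± 0.36 (SE) above the mean of the other backgrounds, with an adjusted p of 0.00975, and its single changes there were 0.26, -0.13 and -0.28. YER137C, named after its values were seen, differed by 1.51, and DFP3, HUG1, LIP1, WTM1, ASI3 and BAG7 by -1.25 to -0.74. HUG1, a gene of the DNA damage checkpoint, was also named after its values were seen. For ANB1 the difference of -3.03 did not pass (limma adjusted p = 0.134), and for PTR2 the difference of 1.16 did not either (limma adjusted p = 0.67).

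**Figure D2:**
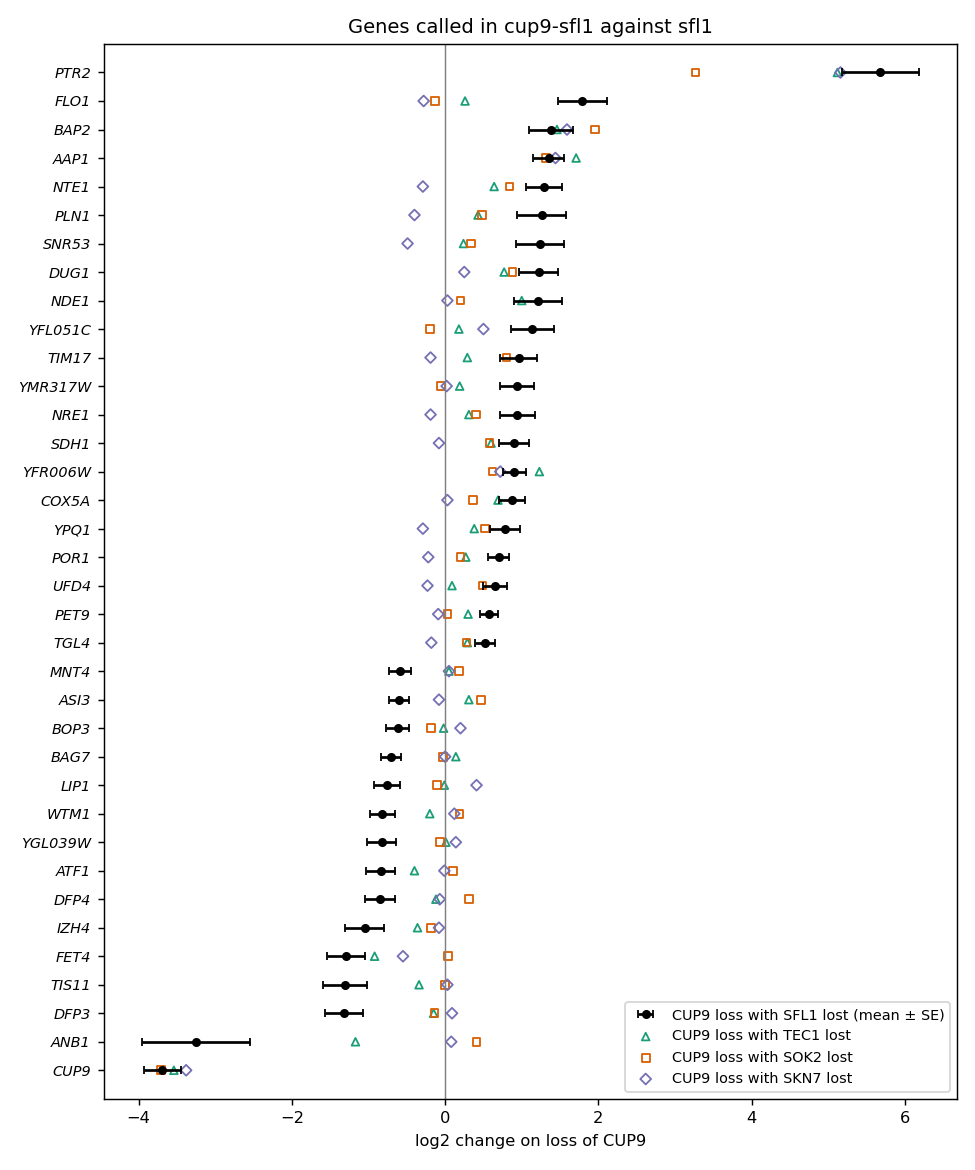
Change in log2 level on loss of CUP9 (horizontal axis) for the 36 genes called in cup9-sfl1 against sfl1. Black points are that comparison with SE, and open symbols are the same loss where TEC1 (triangles), SOK2 (squares) or SKN7 (diamonds) was deleted. PTR2, AAP1 and BAP2 were higher in all 4 pairs, and FLO1 was higher by 1.79 with SFL1 lost, against -0.28 to 0.26 in the other pairs.

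Loss of SFL1 from the cup9 strain changed a large part of the genome. The adhesin genes FLO10, FLO11 and FLO1 rose, as did 16 of 25 cell wall genes and 10 of 16 pheromone-regulated and mating genes, and 18 of 35 genes of the respiratory chain fell. In the limma fit 2334 of 5562 genes (42.0%) passed at an adjusted p under 0.05, 860 of them higher in cup9-sfl1 (15.5%) and 1474 lower (26.5%). After quantile normalization the split was 962 higher and 916 lower, so the excess of falling genes depended on the scale of the arrays, whose medians were 6.51 to 6.69 in cup9-sfl1 and 6.73 to 6.83 in cup9. The median change over all genes was -0.17 as deposited and -0.08 after quantile normalization. The count was 876 without cup9-sfl1 replicate 3, 1247 without cup9-sfl1 replicate 2, 1536 without cup9 replicate 5 and 2690 without cup9-sfl1 replicate 1.

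FLO10 showed the largest rise. It had 9.93, 10.40 and 10.84 in cup9-sfl1, 9.42, 9.75 and 9.93 in sfl1, 4.77, 4.99, 4.72 and 4.45 in cup9, and 4.58, 4.67 and 4.64 in the wild type. Against cup9 the change was 5.66 ± 0.23 (SE), a 50.5-fold difference (limma adjusted p = 5.33e-27). FLO11, the adhesin on which filaments depend, had 13.61, 13.66 and 13.90 in cup9-sfl1, 13.46, 13.59 and 13.52 in sfl1, 10.46, 12.64, 11.66 and 11.04 in cup9, and 10.94, 10.09 and 10.86 in the wild type. Its change was 2.27 ± 0.53 (SE; limma adjusted p = 0.00132). The cup9 arrays spread widely, from 10.46 to 12.64, and those of the double mutant from 13.61 to 13.90. FLO1 was 2.01 ± 0.30 (SE) higher (limma adjusted p = 2.12e-06). SUC2 was higher by 1.07 (limma adjusted p = 0.00143), with 5.46, 5.95 and 6.37 in cup9-sfl1 and 4.78, 4.94, 5.21 and 4.46 in cup9, and OPT2 by 1.37 (limma adjusted p = 0.000376).

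After FLO10, the largest rises were those of PRM7, PHM7 and DDR48. PRM7, a pheromone-regulated gene, had 10.90, 11.72 and 12.22 in cup9-sfl1 and 6.15, 7.07, 6.75 and 8.19 in cup9, a change of 4.57 ± 0.42 (SE). PHM7 had 7.47, 8.52 and 8.02 in cup9-sfl1 and 4.47, 4.51, 4.18 and 4.09 in cup9, a change of 3.69. DDR48, a gene induced by DNA damage and other stress, had 9.57, 9.23 and 8.90 in cup9-sfl1 and 6.21, 6.81, 6.30 and 6.38 in cup9, a change of 2.80. Genes named for the size of their change were limited to those whose cup9-sfl1 and cup9 arrays did not overlap. For PRM7, PHM7 and DDR48 the sfl1 arrays too lay above all cup9 arrays. Further rises were those of YPS1, an aspartic protease anchored at the cell surface, by 2.56, CWP1, a cell wall mannoprotein, by 2.47, FMP45, an integral membrane protein, by 2.44, PNS1 by 2.41 and RTA1 by 2.07.

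The largest fall was that of HPF1, a secreted mannoprotein, with 5.68, 6.67 and 6.85 in cup9-sfl1, 5.74, 7.13 and 6.43 in sfl1, 9.70, 8.96, 9.53 and 9.71 in cup9, and 9.56, 9.21 and 8.63 in the wild type. It fell by 3.07 on the log2 scale (SE 0.51, limma adjusted p = 2.16e-05). TOS8, the homeodomain gene that is the closest relative of CUP9 in the genome, fell by 2.30 on that scale, with 5.37, 6.03 and 5.70 in cup9-sfl1 and 7.58, 8.51, 7.17 and 8.72 in cup9. The remaining falls among the largest were SDL1, a pseudogene in the annotation, by 1.91, MRP7, of the mitochondrial ribosome, by 1.69, ZEO1, a membrane protein of the cell integrity pathway, by 1.62, and ERG29, of sterol synthesis, by 1.46. RME1, a repressor of entry into meiosis, fell by 1.41, SIS1, a cochaperone of Hsp70, by 1.38, ECM13 by 1.36 and YPT6, a GTPase of Golgi traffic, by 1.31 on the log2 scale. Of these only ECM13 lost its call in the fits without 1 array, namely without cup9-sfl1 replicate 2 or cup9 replicate 1.

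**Figure D3:**
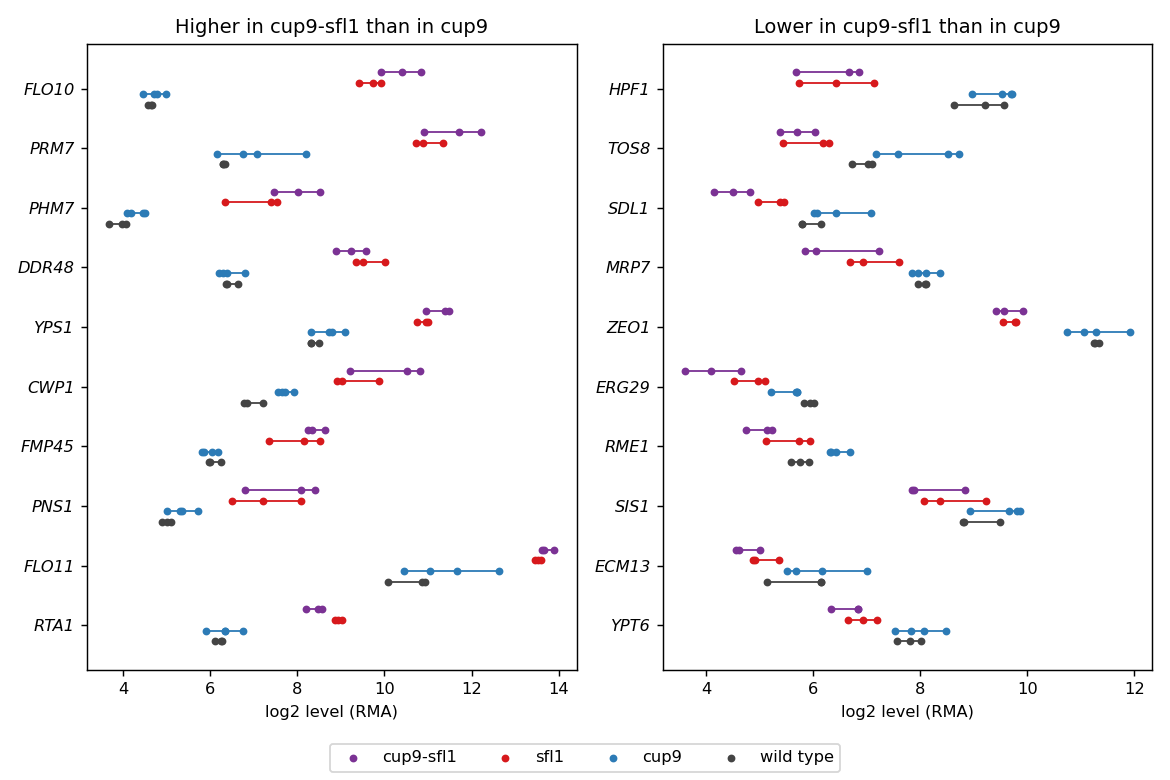
Log2 RMA levels (horizontal axis) of the 10 genes with the largest called rise (left) and the 10 with the largest called fall (right) in cup9-sfl1 against cup9. Genes whose arrays overlapped between those groups were left out. Each row shows, from top to bottom, the arrays of cup9-sfl1, sfl1, cup9 and the filamentous wild type, with a line over their range. For FLO10 the cup9-sfl1 arrays were at 9.93 to 10.84 and the cup9 arrays at 4.45 to 4.99.

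Cell wall genes were among the lists with the most rises. Of 25 measured genes of cell wall proteins and cell integrity, 16 rose and 2 fell, HPF1 and RLM1, beside 15.5% and 26.5% of all genes, and the median change was 0.68 against -0.17 for all genes. CWP1 rose, as did SPI1, a wall protein of stationary cells, by 1.81 and CHS1, the chitin synthase of septum repair, by 1.43. The number of members called ran from 11 without cup9-sfl1 replicate 3 to 21 without cup9-sfl1 replicate 1.

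Genes of mating rose as well. Of 16 pheromone-regulated and mating genes, 10 rose and none fell, beside 15.5% and 26.5% of all genes. Their median change was 0.44 against -0.17 for all genes. After PRM7 the largest were PRM10 by 1.97, PRM1, of membrane fusion, by 1.29 and PRM5 by 1.03. The number called fell to 5 without cup9-sfl1 replicate 2. Those markers of mating type that were called rose too. All 4 markers of alpha cells were called higher, SAG1 by 1.01, STE3 by 0.77, MF(ALPHA)1 by 0.73 and MF(ALPHA)2 by 0.63, and 3 of 6 markers of a cells, MFA2 by 0.85, MFA1 by 0.39 and AGA2 by 0.31. The mean level of the alpha markers was 5.70 to 6.11 in cup9-sfl1 arrays, 5.53 to 6.00 in sfl1, 4.93 to 5.36 in cup9 and 5.18 to 5.40 in the wild type. For the a markers it was 4.53 to 4.68, 4.41 to 4.66, 4.18 to 4.32 and 4.34 to 4.44 in the same groups. Of 6 haploid-specific genes, 2 rose, HO and FAR1, and the mean level was 4.03 to 4.08 in cup9-sfl1 and 3.76 to 3.97 in cup9. STE4 went the other way, with means of 6.46 in cup9-sfl1 and 6.66 in cup9. The calls of a markers dropped to 1 without cup9-sfl1 replicate 2 and in the 4-group fit. Those of haploid-specific genes dropped to 0 without cup9-sfl1 replicate 3. The part of these markers in the change of the mating genes was not tested.

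Genes of amino acid and iron transport, osmotic stress and sugar breakdown were also called higher. The counts below stand beside 15.5% of all genes higher and 26.5% lower, and a median change of -0.17. Of 14 amino acid permeases 7 rose and none fell, and the median change was 0.95. Examples were MUP3, a methionine permease, by 1.62, BAP2 by 1.18, AGP1, a permease of broad range, by 1.17 and HIP1, a histidine permease, by 1.02. Without cup9-sfl1 replicate 3 only 2 permeases were called. Of 20 genes of the iron regulon 9 rose and 2 fell, with a median of 0.49. FRE4, a reductase for iron bound to siderophores, was higher by 1.65, SMF3, an iron transporter of the vacuole, by 1.26, FIT1, a wall mannoprotein that holds siderophores, by 1.07 and ENB1, a siderophore importer, by 0.89. The 2 falls, of ATX1 and HMX1, were not called after quantile normalization. Of 12 genes of glycerol and osmotic stress 5 rose, among them GPD1, which makes glycerol 3-phosphate, by 1.52. Of 22 general stress genes 7 rose and 1 fell, and of 20 genes of glycolysis and fermentation 6 rose and none fell.

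On the lists of respiration, ribosomes and chaperones falls outnumbered rises, beside 26.5% of all genes lower and a median change of -0.17. Of 35 genes of the respiratory chain and ATP synthase 18 fell and none rose, with a median change of -0.49. HAP4, the activator of respiratory genes, fell by 1.07 on the log2 scale, with 6.93, 6.59 and 6.08 in cup9-sfl1 and 8.03, 6.96, 7.85 and 7.55 in cup9. QCR6 fell by 0.95 and QCR7 by 0.86, both of the cytochrome bc1 complex. Without cup9-sfl1 replicate 3 only 2 members were called. Of 30 genes of ribosome biogenesis 13 fell and 1 rose (median -0.65), and of 72 cytosolic ribosomal protein genes 26 fell and 3 rose (median -0.28), a count of calls that ran from 1 without cup9-sfl1 replicate 3 to 35 without cup9-sfl1 replicate 1. The 4-group fit called 13 of the 72, and after quantile normalization 34 fell and 1 rose. For ribosome biogenesis the calls ran from 3 without cup9-sfl1 replicate 2 to 22 without cup9-sfl1 replicate 1. Of 19 heat shock chaperone genes 8 fell and none rose (median -0.35), among them SIS1, STI1, a cochaperone of Hsp70 and Hsp90, by 1.05, HSP78 by 1.04 and HSP104, the disaggregase, by 1.00 on the log2 scale.

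The lists of filamentous growth held calls both ways, beside 15.5% of all genes higher and 26.5% lower. Of 17 transcription factors of that program 2 rose and 6 fell (3 and 2 after quantile normalization), a count of calls that ran from 3 without cup9-sfl1 replicate 2 to 9 without cup9 replicate 2. XBP1, a repressor induced by stress and starvation, had 4.08, 4.82 and 4.56 in cup9-sfl1 and 3.55, 3.33, 3.32 and 3.34 in cup9, a rise of 1.10. MGA1, a relative of heat shock factor that promotes filaments, rose by 1.03, with arrays that overlapped, and DIG1, an inhibitor of the activator Ste12, fell by 1.0 on the log2 scale. TEC1, the partner of Ste12 in filamentation, differed by -0.62 and did not pass (limma adjusted p = 0.0656). Of 15 genes of the filamentation MAPK pathway and its targets 3 rose and 2 fell (3 and 0 after quantile normalization). NFG1, which is known to hold filamentous growth back, had 8.09, 9.53 and 9.03 in cup9-sfl1 and 7.61, 6.90, 7.67 and 6.55 in cup9, a rise of 1.70, and MSB2, the mucin at the head of the pathway, rose by 0.85.

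The shares of nitrogen genes called lay near the 15.5% higher and 26.5% lower of all genes, as did the falls of the TCA cycle list. Of 23 genes repressed by good nitrogen sources 3 rose and 6 fell, with a median change of -0.30. CAR2, of arginine breakdown, rose by 1.61 and MEP3, an ammonium permease, by 0.90, while DAL5, the allantoate permease, fell by 1.13 and DAL7, of allantoin breakdown, by 0.89 on the log2 scale. Of 16 TCA cycle genes 4 rose and 4 fell, and without cup9-sfl1 replicate 3 only 1 was called. Subunits of succinate dehydrogenase were among the rises, SDH3 by 1.05, SDH4 by 1.01 and SDH1 by 0.66, and IDH1 fell by 0.75 on the log2 scale.

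**Figure D4:**
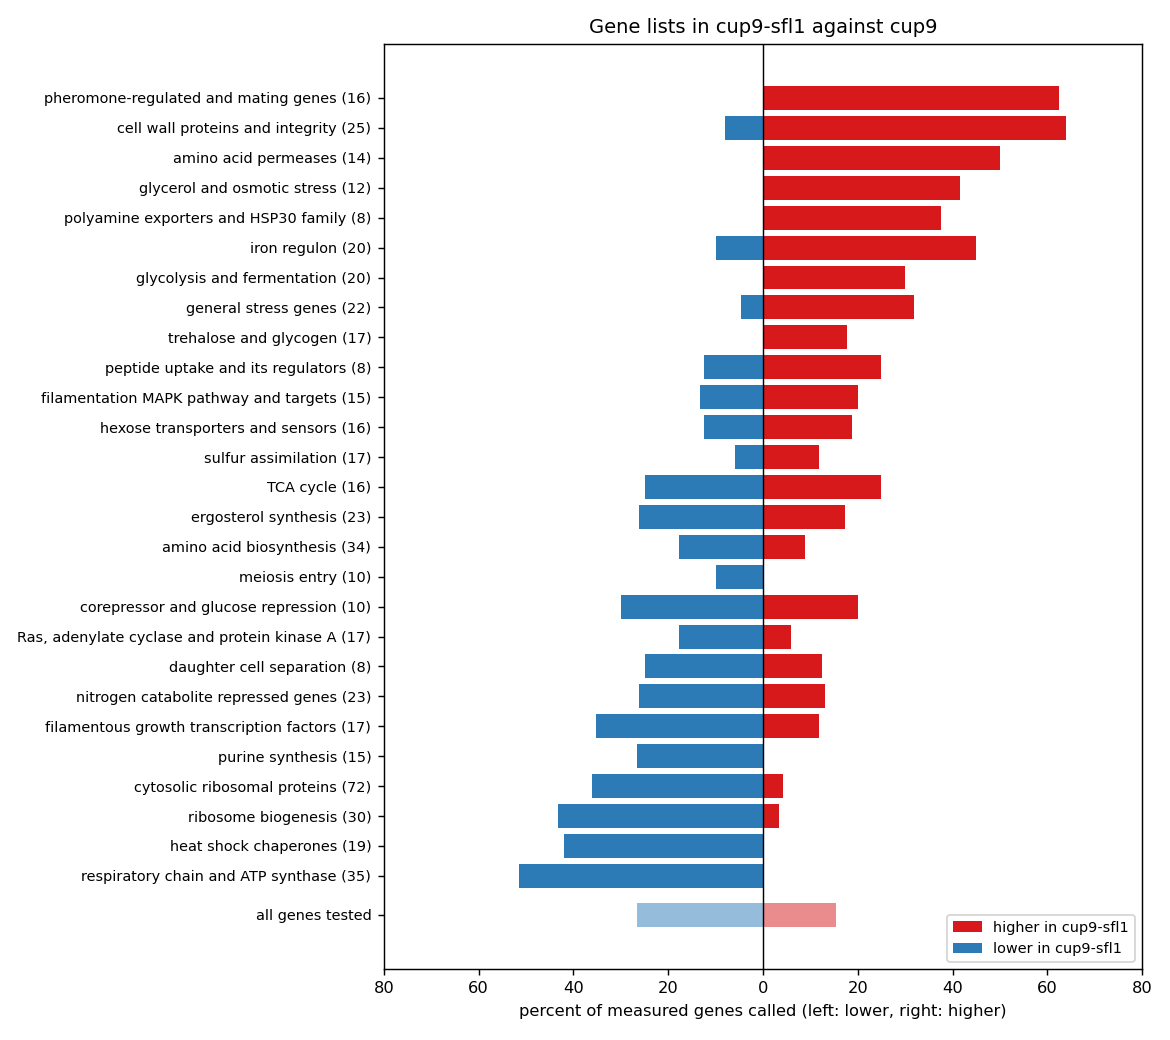
Percent of the measured genes of each list (numbers in brackets) called higher (right) or lower (left) in cup9-sfl1 against cup9, with all genes tested in the bottom row. Among all genes 15.5% were higher and 26.5% lower, while 16 of 25 cell wall genes were higher and 18 of 35 respiratory genes lower.

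The same SFL1 loss was followed where TEC1, SOK2, SKN7 or YAP6, another transcription factor gene, was deleted, in strains that share no array with the pair above. FLO10 was higher by 5.66 where CUP9 was lost, by 1.29 where TEC1 was lost, by 5.95 where SOK2 was lost, by 5.22 where SKN7 was lost and by 2.91 where YAP6 was lost. Its mean levels in the strains without SFL1 were 10.39 ± 0.46 in cup9-sfl1, 5.92 ± 0.57 in tec1-sfl1, 10.64 ± 0.27 in sfl1-sok2, 10.32 ± 0.58 in sfl1-skn7 and 7.85 ± 0.28 in sfl1-yap6 (SD, n = 3 each). FLO1 had its largest rise with SFL1 loss where SOK2 was lost, by 4.22, to a mean level of 8.48 ± 0.54 in sfl1-sok2 (SD, n = 3). Where CUP9 was lost that rise was 2.01, and where TEC1, SKN7 or YAP6 was lost the differences were 0.43, -0.23 and 0.48. The effect of SFL1 loss in the cup9 strain minus its mean in the tec1, sok2 and skn7 backgrounds passed in limma for 34 genes (0.611%), and for 379 genes (6.81%) with the yap6 background in that mean. FLO10 was among both, with 1.51 in the first (adjusted p = 0.00128) and 1.82 in the second (adjusted p = 2.28e-05). YFL051C had 1.81 in the first and 1.49 in the second, and MRP7 -1.47 in the first and -1.19 in the second. The single backgrounds differed among themselves: MRP7 was lower by a log2 change of -1.69 where CUP9 was lost and -1.33 where YAP6 was lost, and did not pass in the 3 others. YFL051C was higher by 2.71 where YAP6 was lost and by 2.59 where TEC1 was lost, but differed by -0.04 where SOK2 was lost.

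For nearly all genes the double mutant could not be told apart from the sum of the single changes on the log2 scale. The sum predicts the cup9-sfl1 level as the sfl1 mean plus the cup9 mean minus the wild-type mean. Only 9 of 5562 genes (0.162%) departed from it in limma, all of them lower than the sum (after quantile normalization 1 was higher and 5 were lower), and 616 had an unadjusted p under 0.05. The genes code for mitochondrial isocitrate dehydrogenase (IDH1, IDH2), the iron-related RNA-binding protein TIS11, the meiosis repressor RME1, the stress-induced protein phosphatase SDP1, and for SRL3, YHR138C, HUA1 and CSS2. The departure of each was lost without at least 1 of the 13 arrays, and the number of genes called ran from 0 to 31 in those fits. It was 0 in limma without sfl1 replicate 1, cup9 replicate 2 or 5, or wild-type replicate 1 or 3, where 506 to 595 genes had an unadjusted p under 0.05. It was 3 without cup9-sfl1 replicate 3 or sfl1 replicate 3, 4 without cup9-sfl1 replicate 1, 6 without cup9-sfl1 replicate 2, 1 without wild-type replicate 2, 29 without cup9 replicate 1 and 31 without cup9 replicate 3.

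IDH1 had levels of 8.63, 9.31 and 9.36 in cup9-sfl1, of 10.27, 10.03 and 9.48 in sfl1, of 9.98, 9.96, 9.45 and 10.02 in cup9, and of 9.25, 9.22 and 9.10 in the wild type. Every array of the single mutants lay above the wild type, whereas the double mutant had 1 array below and 2 just above it. Its mean of 9.10 stood against 10.59 from the sum, a departure of -1.49 ± 0.32 (SE; limma adjusted p = 0.0344). IDH2, the partner subunit, had 9.82, 10.39 and 10.04 in cup9-sfl1, 10.89, 10.96 and 10.48 in sfl1, 10.40, 10.71, 10.03 and 10.48 in cup9, and 9.57, 10.02 and 9.41 in the wild type. Its mean of 10.08 stood against 11.52 from the sum, a departure of -1.44 ± 0.29 (SE; limma adjusted p = 0.0328). No other of the 16 TCA cycle genes measured was called, beside 0.162% of all genes.

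TIS11 had 5.39, 4.86 and 4.87 in cup9-sfl1, 6.50, 6.17 and 6.37 in sfl1, 4.19, 4.54, 4.17 and 3.99 in cup9, and 3.82, 3.73 and 3.74 in the wild type. The double mutant lay between sfl1 and cup9, with no overlap, and the departure was -1.77 ± 0.40 (SE; limma adjusted p = 0.0371). RME1 had 4.74, 5.23 and 5.13 in cup9-sfl1, 5.94, 5.73 and 5.11 in sfl1, 6.43, 6.33, 6.32 and 6.68 in cup9, and 5.75, 5.92 and 5.59 in the wild type. It was higher than the wild type by 0.69 in cup9 and lower by 0.72 in the double mutant, a departure of -1.25 (limma adjusted p = 0.0344). The other departures were -1.64 for SDP1, -1.52 for SRL3, -1.27 for YHR138C, -1.08 for HUA1 and -1.0 for CSS2. For these 5 genes the mean of the double mutant lay above the wild type, by 0.37 (CSS2) to 1.25 (SRL3).

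PTR2 and the flocculin genes did not pass the test of departure from the sum. PTR2 had a mean of 12.39 in cup9-sfl1 against 11.45 from the sum, a departure of 0.93 ± 0.69 (SE; limma adjusted p = 0.662). For FLO10 the mean of 10.39 stood against 9.80, with 0.59 ± 0.34 (SE; limma adjusted p = 0.539), and for FLO11 the mean of 13.72 stood against 14.34, with -0.62 ± 0.77 (SE; limma adjusted p = 0.811). FLO1 came closest, with a mean of 5.87 against 4.03 from the sum, a departure of 1.83 ± 0.43 (SE), an unadjusted p of 9.28e-05 and an adjusted p of 0.0516 in limma. That gene passed without cup9-sfl1 replicate 1, with a departure of 2.36 and an adjusted p of 0.00318 in limma.

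**Figure D5:**
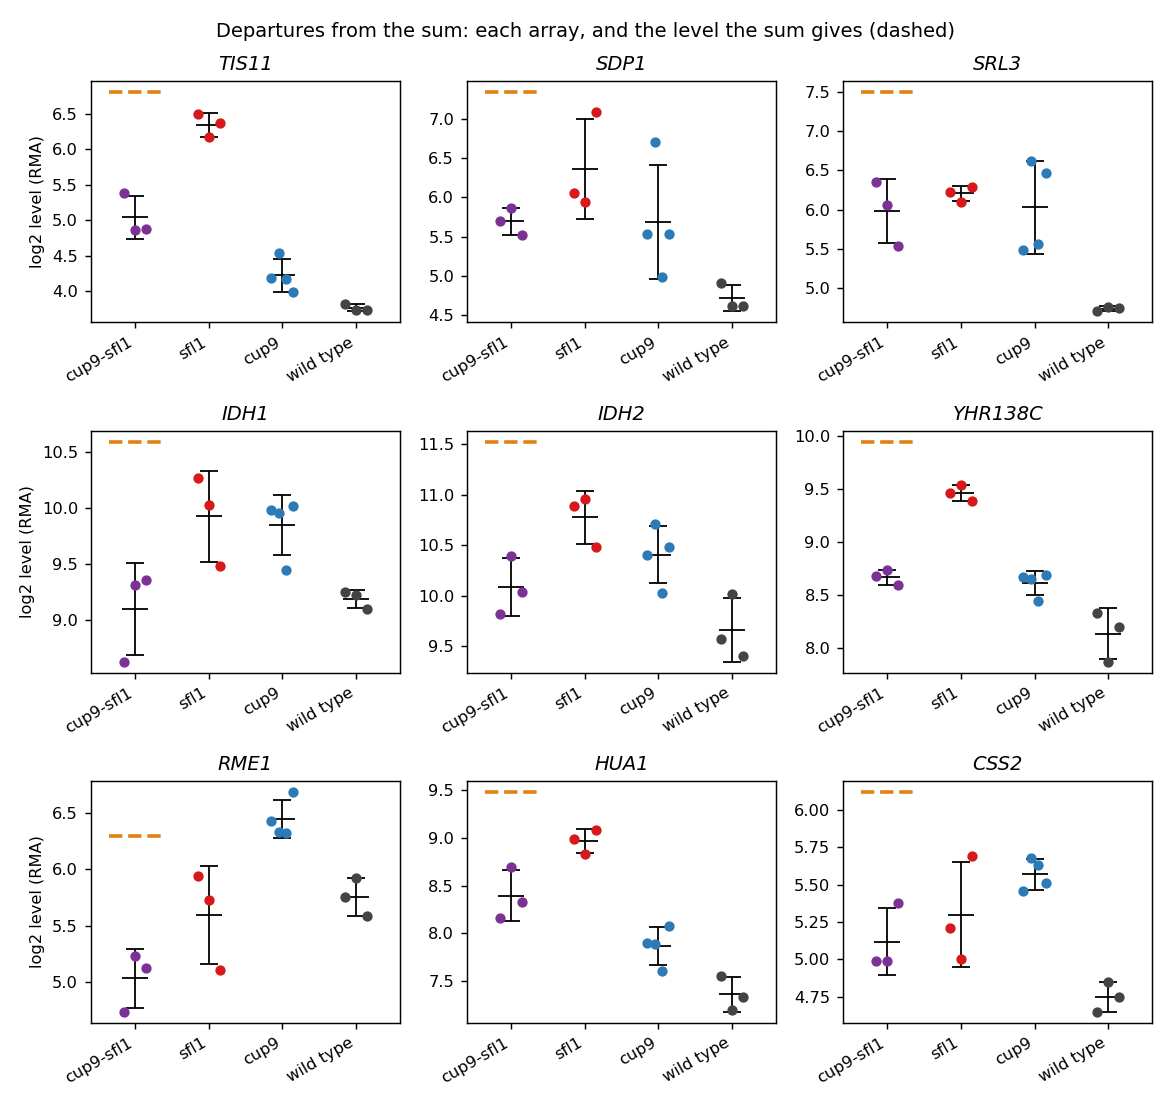
Log2 RMA level (vertical axis) of the 9 genes that departed from the sum of the single changes, in each array of cup9-sfl1, sfl1, cup9 and the filamentous wild type, from left to right. Points are arrays, bars are the mean ± SD, and the dashed line is the cup9-sfl1 level that the sum gives. In each panel the cup9-sfl1 arrays lie below that line, with departures of -1.0 for CSS2 to -1.77 for TIS11.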

How the data were processed

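Total RNA of colonies was hybridised to 1-colour Affymetrix arrays. The deposited values are on the log2 scale and were made by the authors with RMA, per the submitters' processing notes. The genome build and the set of arrays normalized together are not given in the sources used here. Arrays of the series on another platform, with none of these strains, were not used. The platform annotation gave a single gene for 5668 of the 6739 probe sets, several for 166 and no gene for 905. The 5668 covered 5562 genes, all named in the RefSeq annotation of assembly R64. Where a gene had several probe sets (80 genes), the one with the highest mean was used.

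From these values limma 3.58.1 in R 4.3.3 fitted 21 group means over 68 arrays (47 residual and 5.93 prior degrees of freedom, eBayes without trend). Comparisons were two-sided contrasts with Benjamini-Hochberg adjustment over all genes and calls under 0.05. The code was tested on simulated data. The members and lists were chosen with earlier results of these data known. Genes were named by a rule: CUP9, SFL1, PTR2, OPT2, FLO1, FLO10, FLO11 and SUC2, up to 10 called genes each way with the largest change in each comparison (without array overlap in the pairwise ones), and up to 4 members of a list. All genes called against sfl1 are named besides. Other settings tried were probe set means, quantile normalization, the 25th percentile of mean level as a filter, a fit of 4 groups, trend and robust eBayes, the replicate block, keeping the odd arrays, and leaving out each of the 13 arrays. The comparisons in the other backgrounds were added after seeing the data.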

Additional observations from a re-analysis of the deposited data

Results flagged for a closer look

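Some values stood apart from the others of their group of 4 cup9 arrays. ERG29 in replicate 2 was at 5.21, IDH1 in replicate 3 at 9.45 and LIP1 in replicate 5 at 9.32. Chance alone marks about 1 in 20 groups in this way. The array titled cup9 replicate 4, which no comparison used, had a CUP9 level of 8.21, above the 3.68 to 4.34 of the other cup9 arrays.

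The change on loss of CUP9 differed between the strains with and without SFL1 in limma for 9 genes: by -1.77 for TIS11, -1.64 for SDP1, -1.52 for SRL3, -1.49 for IDH1, -1.44 for IDH2, -1.27 for YHR138C, -1.25 for RME1, -1.08 for HUA1 and -1.0 for CSS2. The change on loss of CUP9 also differed between the sfl1 strain and the mean of the tec1, sok2 and skn7 strains, by 1.84 for FLO1, 1.51 for YER137C, -1.25 for DFP3, -0.95 for HUG1, -0.86 for LIP1, -0.86 for WTM1, -0.83 for ASI3 and -0.74 for BAG7. The change on loss of SFL1 differed between the cup9 strain and its mean in the tec1, sok2 and skn7 strains for 34 genes. Among them were YFL051C by 1.81, FLO10 by 1.51 and MRP7 by -1.47. With the yap6 strain in the mean these were 1.49, 1.82 and -1.19. The FLO10 level was not particular to cup9-sfl1: its mean was 10.39 there, 10.64 in sfl1-sok2, 10.32 in sfl1-skn7, 7.85 in sfl1-yap6 and 5.92 in tec1-sfl1. These are differences in log2 change, each tested as a contrast of its own.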

How the results depend on the processing

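In cup9-sfl1 against sfl1 the count of 36 genes became 12 when only the 4 groups were fitted and 8 with the replicate block, and 15 to 180 when arrays were left out in turn. In cup9-sfl1 against cup9 the count of 2334 became 1131 with the replicate block and 876 to 2690 with arrays left out. For the departures from the sum, 9 became 3 in the 4-group fit, 1 with the block and 0 to 31 with arrays left out. The fits that called 0 were made in limma, and 506 to 595 genes had an unadjusted p under 0.05 in them. The smaller fits hold fewer arrays, with 6 residual degrees of freedom under the block. Correlations of same-number residuals ran from -0.0468 to 0.443 over the 3 pairs of groups that hold cup9-sfl1, and no such pair had all of them over 0.1. Arrays with different numbers were not compared in this way, so whether the replicate number marks arrays handled together was not tested. Quantile normalization, the filter, probe set means, trend and robust eBayes and the kept arrays moved none of these 3 totals by over 1.5 times, but quantile normalization moved the falls in cup9-sfl1 against cup9 from 1474 to 916 and the lower departures from 9 to 5. The CUP9 level in cup9-sfl1 against cup9 was reversed, at -0.08 (limma adjusted p = 0.916), with cup9 replicate 4 and tec1 replicate 1 kept, since that cup9 array has a high CUP9 level. Calls held under every alternative for 6 of the 36 genes called against sfl1 and for 0 of the 9 departures. Against cup9 they held for 23 of 25 named genes. Most of these 25 were picked for a large change without array overlap, so their share does not describe the 2334 genes called. The cause of these losses was not tested. Signal over background could not be judged, since no detection calls were used.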
